A study of Sus scrofa with 40 samples.

Results

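The genes of fatty acid activation and oxidation described here comprised 31 members, listed by their place in the pathway. All 31 had a row in both the pooled-oocyte and the single-oocyte count table, out of 38794 rows that name a gene. The libraries came from mature (metaphase II) oocytes of the pig, Sus scrofa, of a hybrid commercial breed that combines Large White with Duroc and Berkshire. Each oocyte or pool was labelled mtDNA-deficient or mtDNA-normal, and the comparison of the states asks how their transcriptomes differ. The pools comprised 5 deficient libraries (A1, A2, A3, B2, B4) and 6 normal libraries (A2, A3, A4, B1, B2, B4), each from pooled oocytes extracted with a column kit and amplified with the single-primer isothermal method (SPIA). A further 14 deficient and 15 normal libraries each held 1 oocyte, extracted in the tube and prepared with a kit (SoLo) whose pig-specific primers deplete unwanted transcripts. The titles of the single oocytes carry the letters BCB with neg for deficient and pos for normal oocytes, and how the states were assigned is not stated further in the labels. The design text speaks of 5 pools a group, and all 11 labelled pools were used. The number of oocytes in a pool and the animals behind each library are not stated either.

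Fatty acids are used as fuel in several steps. Acyl-CoA synthetases first join them to coenzyme A, the carnitine acyltransferases then carry long chains into mitochondria, and a cycle of dehydrogenation, hydration, a further dehydrogenation and thiolysis shortens the chain and releases acetyl-CoA. Electrons from the first step of each cycle reach the respiratory chain through electron transfer flavoprotein, and peroxisomes shorten very long and branched chains with enzymes of their own. Pig oocytes are rich in lipid droplets, and fatty acid oxidation is known to contribute to the energy supply of maturing mammalian oocytes.

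Values are given in CPM, counts per 1000000 counts of a library in rows that name a gene, a unit not corrected for gene length. A level was therefore compared between libraries for 1 gene and not between genes. Pools held 14480546 to 29538982 counts and single oocytes 706929 to 3067523. To test the single oocytes, the counts of oocytes that share a state and a leading title number were added up. The labels do not explain that number. This gave 4 deficient sums (numbers 1 to 4, of 2, 2, 3 and 7 oocytes) and 3 normal sums (numbers 2 to 4, of 4, 4 and 7 oocytes). By the dates in the column names, numbers 1 and 3 held oocytes of 17 September only and number 2 of 22 September only. Number 4 held oocytes of both dates. For numbers 1 to 3, title number and date can therefore not be told apart. Nothing in the labels says that pools or sums come from separate animals, so the p-values measure the spread between these libraries, which may be technical. All 12 oocyte markers with a row averaged 10 CPM or more in both pooled groups and 11 of them in both groups of single oocytes. Of 18 cumulus and granulosa markers 17 had a row, and their summed level was 98.4 to 205 CPM in deficient pools and 130 to 198 CPM in normal pools, and 31.2 to 83.9 CPM in deficient oocytes and 14.996 to 63.2 CPM in normal oocytes. Only 3 of these markers averaged 10 CPM or more in each pooled group, and 2 in each group of single oocytes. At 0 throughout a group were 6 markers in deficient pools, 7 in normal pools, 4 in deficient oocytes and 3 in normal oocytes. Markers of theca and stroma summed to 3.53 to 7.27 CPM in deficient pools and 6.62 to 12.3 CPM in normal pools, and to 9.76 to 55.7 CPM in deficient oocytes and 1.96 to 43.5 CPM in normal oocytes. Those of leukocytes and blood summed to at most 4.14 CPM in deficient pools and 1.22 CPM in normal pools, and 2.51 CPM in deficient oocytes and 4.59 CPM in normal oocytes. The part of such cells in the results was not tested. Deficient pool A2 and normal pool A3 stood apart by the fewest genes detected, 14207 and 15057, against 16169 to 18456 in the other deficient pools and 17604 to 19245 in the other normal pools. A 1-row transcript, LOC102158401, took 61.5% ± 6.56 of the counts of a single oocyte (SD, n = 29) and at most 0.0275% of those of a pool. The share averaged 58.5% ± 6.71 in 14 deficient oocytes and 64.2% ± 5.20 in 15 normal oocytes (SD). A smaller share raises the CPM of every other row, so CPM of single oocytes and sums carries this difference between the states. The fitted log2 differences use TMM scaling, so their sign can differ from that of the mean CPM, as for ACSL3 and HADHA in the sums. In a pool, fewer oocytes with a transcript and less of it per oocyte cannot be told apart.

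No member of the pathway differed between mtDNA-deficient and mtDNA-normal oocytes at an adjusted p under 0.05, in the pools or in the single-oocyte sums. In pools, 23 members had enough counts to be tested, and edgeR's quasi-likelihood test called 0 of them, against 0 of 13540 genes (0%) in the whole table. None of the 23 had an unadjusted p under 0.05, against 720 of all genes (5.32%), and none had groups that did not overlap, against 0.598% of all genes. In the sums, 19 members were tested and 0 were called, against 0 of 11964 genes (0%). None of these had an unadjusted p under 0.05 either, against 2% of all genes. None had groups without overlap in CPM, against 3.73% of all genes (3.21% with the deficient sums higher). That measure carries the share of LOC102158401. DESeq2 and limma-voom also called 0 members in each comparison, while DESeq2 called 59 genes of the whole pooled table and 2 of the single-oocyte table.

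The members' summed level was 3903 ± 491 CPM (SD) over 5 deficient pools and 3804 ± 431 CPM (SD) over 6 normal pools. In the sums it was 979 ± 267 CPM (SD) over 4 deficient sums and 907 ± 128 CPM (SD) over 3 normal sums. These totals were mostly ACSL3, which held 82.2% ± 4.27 of the members' counts in deficient pools and 82.0% ± 3.69 in normal pools, and 61.8% ± 2.22 in deficient sums and 63.3% ± 3.16 in normal sums. Of the 31 members, 17 had a count in every pool and 9 in every oocyte, and 6 stood at 10 CPM or more in every pool.

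**Figure D1:**
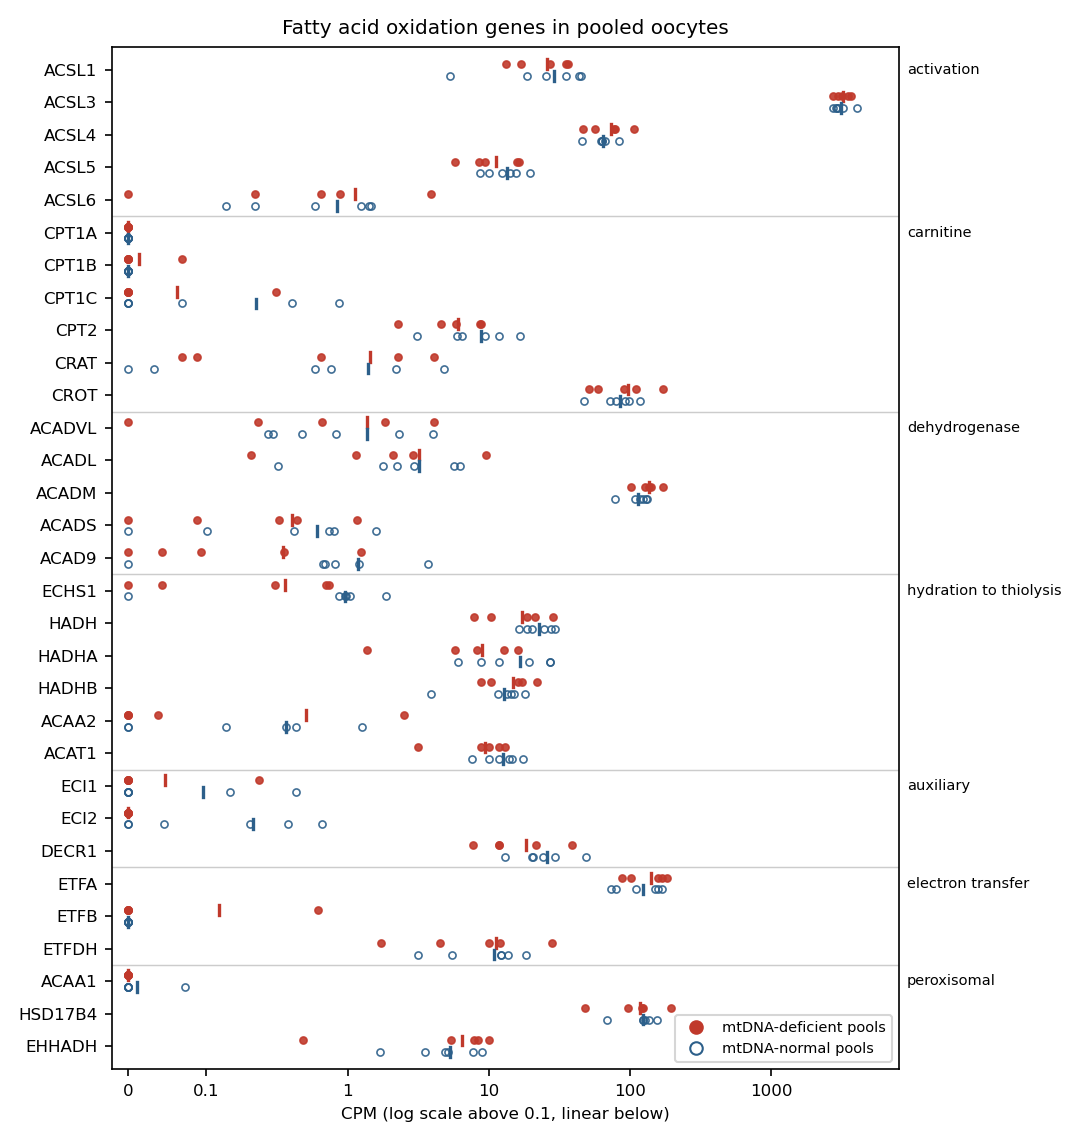
CPM of each of the 31 members in 5 mtDNA-deficient pools (filled) and 6 mtDNA-normal pools (open), with the group mean as a vertical tick; the axis is logarithmic above 0.1 CPM and linear below it. In every row the filled and open points overlap, and ACSL3 lies between 2746 and 4021 CPM while CPT1A is at 0 in all 11 pools.

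Among the synthetases of the activation step, ACSL3, an enzyme of the endoplasmic reticulum and lipid droplets, took the most counts of all members, uncorrected for length. It stood at 3176, 3486, 2946, 2746 and 3661 CPM in deficient pools A1, A2, A3, B2 and B4, against a lowest value of 2750, a median of 2948 and a highest value of 4021 CPM in normal pools. The groups overlapped almost entirely, and the highest pool was normal B1. On the log2 scale the difference was 0.17 (SE 0.23, adjusted p = 0.942, edgeR), with a 95% interval of -0.31 to 0.64. In the sums ACSL3 had 718, 420, 538 and 728 CPM in deficient sums 1 to 4, against 563, 522 and 632 CPM in normal sums 2 to 4. The deficient sums lay on both sides of the normal ones, with a log2 difference of -0.15 (SE 0.17, adjusted p = 1.00) and an interval of -0.51 to 0.20. Single oocytes ranged more widely, with 296, 626 and 974 CPM as the lowest, median and highest of 14 deficient oocytes, against 369, 604 and 707 CPM in 15 normal oocytes.

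ACSL4, a synthetase that prefers arachidonic acid and other polyunsaturated chains, was among the members of smallest p in the single-oocyte sums. It had 18.5, 8.87, 7.49 and 14.1 CPM in deficient sums 1 to 4, against 14.4, 11.5 and 14.8 CPM in normal sums 2 to 4. The highest and the lowest sum were both deficient, and the log2 difference was -0.38 (SE 0.36, adjusted p = 1.00). Within the dates that the column names carry, a fit with each oocyte as a sample gave -0.36 for 17 September and -0.44 for 22 September, neither called. Oocytes are not stated to be from separate animals, so such a fit measures the spread between oocytes. In pools ACSL4 had 78.7, 56.8, 76.5, 46.2 and 107 CPM in the deficient ones in the order above, against 45.3, 63.4 and 83.7 CPM as the lowest, median and highest of the normal ones, with a log2 difference of 0.28 (SE 0.27, adjusted p = 0.926). Deficient B4 was the highest pool of all, and leaving it out gave a log2 difference of 0.14. The state difference in pools minus that in sums was 0.69 on the log2 scale (SE 0.44, adjusted p = 0.930), so the opposite signs were not shown to differ.

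The other synthetases had overlapping levels in both states and were not called. ACSL1, found on the outer mitochondrial membrane and the endoplasmic reticulum, averaged 25.7 ± 10.4 CPM in deficient pools and 28.8 ± 15.5 CPM in normal pools (SD), and 46.1 ± 15.8 CPM in deficient sums and 41.6 ± 8.68 CPM in normal sums. ACSL5, which also sits on mitochondria, averaged 11.2 ± 4.73 CPM in deficient pools and 13.4 ± 3.97 CPM in normal pools. In the sums ACSL5 averaged 4.75 ± 2.04 CPM for deficient and 2.87 ± 1.45 CPM for normal oocytes. ACSL6, best known from brain, was near the detection limit, with 1.12 ± 1.57 CPM in deficient pools and 0.848 ± 0.606 CPM in normal pools. Its value in deficient pool B2, 3.87 CPM, stood far from the 0 to 0.880 CPM of the other deficient pools, and without that pool its log2 difference of 0.47 became -0.79. In oocytes ACSL6 had 17 counts in 4 of 29 libraries.

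**Figure D2:**
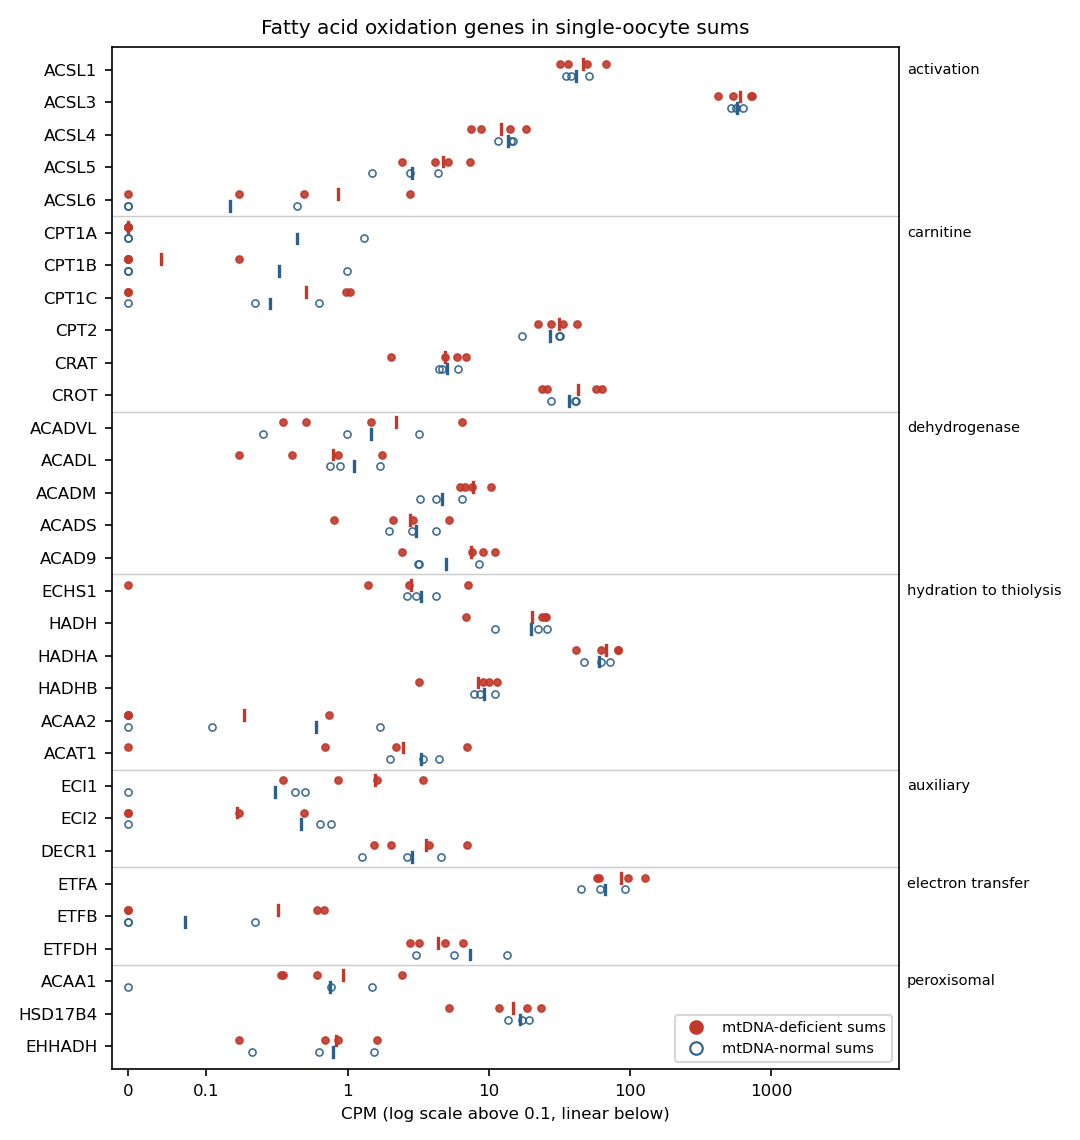
CPM of each of the 31 members in 4 mtDNA-deficient sums (filled) and 3 mtDNA-normal sums (open) of single oocytes, with the group mean as a vertical tick and the same axis as for the pools. The filled and open points overlap in every row; ACADM, for example, has 6.27 to 10.4 CPM in deficient sums and 3.26 to 6.48 CPM in normal sums.

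Carnitine palmitoyltransferase 1, the outer-membrane enzyme that commits long chains to mitochondrial oxidation, was nearly absent from the counts in all its forms. CPT1A, known as the liver form, had 0 counts over all 11 pools, which allows a level of up to 0.0116 CPM (3 counts over the pools together), and 12 counts in the oocytes, all of them in 1 normal oocyte. CPT1B, the muscle form, had 1 count over the pools and 10 counts in 2 oocytes. CPT1C, a form of neurons and of the endoplasmic reticulum with little enzyme activity, had 46 counts in 4 pools and 18 counts in 5 oocytes. The CPT1 genes did not pass the expression filter for the comparison of states, and without the filter 0 members were called. Such limits cover counting error only.

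CPT2, the enzyme of the inner membrane that returns the chain to coenzyme A, was present in every pool and every oocyte. It averaged 6.03 ± 2.76 CPM in deficient pools and 8.86 ± 4.80 CPM in normal pools, and 31.2 ± 8.42 CPM in deficient sums and 26.96 ± 8.37 CPM in normal sums (SD), with log2 differences of -0.43 (SE 0.41) in pools and 0.03 (SE 0.26) in sums. CRAT, which handles acetyl groups, averaged 1.43 ± 1.73 CPM in deficient pools and 1.40 ± 1.86 CPM in normal pools. In the sums CRAT averaged 4.93 ± 2.10 CPM for deficient and 5.05 ± 0.866 CPM for normal oocytes.

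CROT, the peroxisomal octanoyltransferase that passes shortened chains on to mitochondria, took the most counts among the acyltransferases, uncorrected for length. It stood at 90.5, 51.2, 59.5, 109 and 172 CPM in deficient pools A1, A2, A3, B2 and B4, against 47.4, 85.8 and 118 CPM as the lowest, median and highest of the normal pools. Only deficient B4 exceeded the highest normal pool. Its log2 difference was 0.31 (SE 0.24, adjusted p = 0.926), and without deficient B4 it was 0.03. Its sums were 57.8, 23.8, 25.9 and 63.1 CPM for deficient oocytes, against 41.4, 27.7 and 41.1 CPM for normal oocytes, so that the deficient sums lay below and above the normal ones.

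ACADM, the dehydrogenase of medium chains, was the member of smallest p in pools and among the smallest in the sums, with the higher mean in deficient oocytes in both. In pools it had 142, 127, 137, 101 and 172 CPM in deficient A1, A2, A3, B2 and B4, against 78.4, 120 and 131 CPM as the lowest, median and highest of the normal ones. Of the deficient pools, 3 lay above every normal pool, and deficient B2 lay below most of them. ACADM differed by 0.37 on the log2 scale (SE 0.22, adjusted p = 0.926), with an interval of -0.11 to 0.85, and over the fits that leave out 1 pool it lay between 0.25 and 0.49. In the sums ACADM had 6.27, 7.66, 6.81 and 10.4 CPM in deficient sums 1 to 4, against 4.25, 3.26 and 6.48 CPM in normal sums 2 to 4. Normal sum 4 lay between deficient sums 1 and 3, which was the whole overlap, and the log2 difference was 0.58 (SE 0.46, adjusted p = 1.00). Oocytes of 17 September averaged 6.81 ± 4.37 CPM when deficient (n = 8) and 5.51 ± 3.30 CPM when normal (n = 9), and those of 22 September 9.87 ± 6.95 CPM when deficient and 5.03 ± 5.59 CPM when normal (SD, n = 6 each).

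ACAD9, which has dehydrogenase activity on long chains and is required to assemble respiratory complex I, was scarce in pools. It had 0.0931, 0, 0.353, 1.25 and 0.0440 CPM in deficient pools A1, A2, A3, B2 and B4, against 0, 0.752 and 3.69 CPM as the lowest, median and highest of the normal ones. The values came from 43 counts in the deficient and 195 counts in the normal pools, with 109 counts in normal B1 alone. The log2 difference of -1.67 (SE 1.17, adjusted p = 0.926) had an interval of -4.15 to 0.81 and was -0.77 without normal B1 and -2.98 without deficient B2. The sums had the other sign, with 9.06, 2.42, 11.1 and 7.595 CPM in deficient sums 1 to 4, against 3.18, 3.13 and 8.57 CPM in normal sums 2 to 4, and a log2 difference of 0.46 (SE 0.53, adjusted p = 1.00). The difference between these effects was -2.07 on the log2 scale (SE 1.38, adjusted p = 0.930).

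The other dehydrogenases were at a few CPM or less in both states. ACADVL, for very long chains, averaged 1.36 ± 1.67 CPM in deficient pools and 1.37 ± 1.52 CPM in normal pools, and ACADL, for long chains, 3.19 ± 3.72 CPM in deficient pools and 3.19 ± 2.29 CPM in normal pools (SD). In sums ACADVL averaged 2.19 ± 2.88 CPM for deficient and 1.47 ± 1.53 CPM for normal oocytes, and ACADL 0.793 ± 0.694 and 1.11 ± 0.514 CPM in the same order. ACADS, for short chains, had 0.326, 1.17, 0.0882, 0 and 0.440 CPM in the deficient pools in the order above, against 0, 0.576 and 1.599 CPM as the lowest, median and highest of the normal pools. Its sums were 5.22, 0.806, 2.89 and 2.08 CPM for deficient oocytes, against 4.25, 2.88 and 1.98 CPM for normal oocytes. Neither set of ACADS values separated the states, with log2 differences of -0.22 (SE 1.14) in pools and -0.39 (SE 0.72) in sums.

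HADHA and HADHB encode the subunits of the mitochondrial trifunctional protein, which carries out hydration, the further dehydrogenation and thiolysis of long chains. HADHA had 12.9, 5.80, 1.37, 16.2 and 8.23 CPM in deficient pools A1, A2, A3, B2 and B4, against 6.10, 15.6 and 27.3 CPM as the lowest, median and highest of the normal pools. Deficient A2 and A3 lay below every normal pool, and 3 normal pools lay above every deficient one. HADHA had a log2 difference of -0.77 (SE 0.48, adjusted p = 0.926), with an interval of -1.79 to 0.26, which was -0.49 without deficient A3. In the sums HADHA stood at 82.5, 41.5, 62.6 and 81.7 CPM for deficient oocytes, against 62.0, 47.5 and 71.6 CPM for normal oocytes, a log2 difference of -0.05 (SE 0.20, adjusted p = 1.00). HADHB averaged 14.9 ± 5.33 CPM in deficient pools and 12.7 ± 4.79 CPM in normal pools, and 8.43 ± 3.60 CPM in deficient sums and 9.23 ± 1.66 CPM in normal sums (SD).

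The ratio of HADHA to HADHB counts, a quantity chosen after the values were seen and therefore given with no test, was 0.755, 0.656, 0.131, 1.012 and 0.373 in deficient pools A1, A2, A3, B2 and B4, against 1.08, 1.56, 0.750, 0.780, 1.91 and 2.04 in the normal pools A2, A3, A4, B1, B2 and B4. The groups overlapped through deficient A1 and B2 and normal A4 and B1. In the sums the ratio was 9.12, 12.9, 6.24 and 7.17 for deficient oocytes, against 7.12, 6.02 and 6.46 for normal oocytes. The ratio thus lay above 6 in every sum and at or below 2.04 in every pool. The counts are not corrected for the lengths of these genes, so the ratio compares libraries and does not give the proportion of the subunits.

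HADH, the hydroxyacyl-CoA dehydrogenase of shorter chains, took the most counts of its step in pools. Its values were 21.3, 7.87, 10.3, 28.2 and 18.6 CPM in the deficient pools, against 16.4, 22.3 and 29.4 CPM as the lowest, median and highest of the normal pools. The log2 difference was -0.30 (SE 0.27, adjusted p = 0.926). In sums HADH was at 25.4, 6.85, 23.8 and 24.99 CPM for deficient oocytes, against 25.9, 11.03 and 22.3 CPM for normal oocytes, so that 1 sum in each state was low. On 17 September oocytes averaged 25.9 ± 6.74 CPM when deficient (n = 8) and 17.97 ± 10.3 CPM when normal (n = 9), and on 22 September 18.03 ± 12.97 CPM when deficient and 22.95 ± 16.5 CPM when normal (SD, n = 6 each), with no call on either date in the fits that took each oocyte as a sample.

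The other enzymes of hydration and thiolysis did not separate the states either. ECHS1, the short-chain enoyl-CoA hydratase, averaged 0.360 ± 0.353 CPM in deficient pools and 0.952 ± 0.591 CPM in normal pools, a log2 difference of -1.30 (SE 1.04), and 2.81 ± 3.07 CPM in deficient sums and 3.32 ± 0.834 CPM in normal sums. ACAT1, the acetoacetyl-CoA thiolase that also serves ketone bodies and isoleucine, averaged 9.35 ± 3.82 CPM in deficient pools and 12.6 ± 3.54 CPM in normal pools, and 2.47 ± 3.15 CPM in deficient sums and 3.29 ± 1.23 CPM in normal sums (SD). ACAA2, the thiolase of medium and long chains, did not pass the expression filter between states. Its 55 counts in deficient pools were in 2 of 5 libraries, 54 of them in A1, and its 56 counts in normal pools were in 4 of 6.

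DECR1, the reductase that lets unsaturated chains continue through the cycle, took the most counts of the auxiliary enzymes. It had 11.9, 7.73, 21.5, 11.8 and 38.8 CPM in deficient pools A1, A2, A3, B2 and B4, against 13.1, 22.2 and 49.0 CPM as the lowest, median and highest of the normal ones. Deficient A1, A2 and B2 lay below every normal pool. The log2 difference was -0.43 (SE 0.42, adjusted p = 0.926). The sums stood at 6.97, 2.02, 1.53 and 3.80 CPM for deficient oocytes, against 1.27, 2.63 and 4.61 CPM for normal oocytes, with a log2 difference of 0.07 (SE 0.70).

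The enoyl-CoA isomerases ECI1 and ECI2, which shift double bonds, did not pass the expression filter for the comparison of states in either table. ECI1 had 6 counts in 1 of 5 deficient pools and 11 counts in 2 of 6 normal pools, and 38 counts in 7 of 14 deficient oocytes and 6 counts in 3 of 15 normal oocytes. ECI2 had 0 counts in all 5 deficient pools and 36 counts in 4 of 6 normal pools, at 0.381, 0.0458, 0.203 and 0.654 CPM in A2, A3, B1 and B2. In oocytes ECI2 had 5 counts in 3 deficient and 10 counts in 4 normal libraries. ECI2 had the smallest p of the members for a difference of the state effect between pools and sums, -3.37 on the log2 scale (SE 1.79, adjusted p = 0.912), a fitted value that depends on the handling of a group at 0.

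ETFA and ETFB form electron transfer flavoprotein, which takes the electrons of the acyl-CoA dehydrogenases, and ETFDH passes them to ubiquinone. ETFA had 157, 102, 87.2, 170 and 184 CPM in deficient pools A1, A2, A3, B2 and B4, against 72.9, 130 and 169 CPM as the lowest, median and highest of the normal pools. Deficient B2 and B4 were the highest pools, and A2 and A3 lay among the lower ones. The log2 difference was 0.33 (SE 0.21, adjusted p = 0.926), with an interval of -0.12 to 0.78. Its sums were 96.1, 60.5, 58.7 and 128 CPM for deficient oocytes, against 61.6, 45.2 and 91.7 CPM for normal oocytes, a log2 difference of 0.18 (SE 0.22, adjusted p = 1.00). On 17 September oocytes averaged 93.3 ± 33.8 CPM when deficient and 73.1 ± 31.2 CPM when normal, and on 22 September 106 ± 53.3 CPM when deficient and 69.2 ± 20.9 CPM when normal (SD). ETFA thus had the higher mean CPM in deficient oocytes in the pools and on both dates, with overlap in each and no call. The CPM of single oocytes carries the share of LOC102158401. With each oocyte as a sample, the fitted log2 difference was 0.13 on 17 September and 0.37 on 22 September.

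ETFDH had the smallest p of the members in the single-oocyte sums. It stood at 2.79, 3.22, 4.93 and 6.62 CPM in deficient sums 1 to 4, against 13.4, 5.64 and 3.08 CPM in normal sums 2 to 4. Normal sum 2 alone lay above all deficient sums. The log2 difference was -0.94 (SE 0.56, adjusted p = 1.00), and it was -0.30 without normal sum 2 and -1.36 without normal sum 4. Oocytes of 17 September averaged 4.61 ± 2.87 CPM when deficient and 3.35 ± 3.47 CPM when normal, and those of 22 September 5.33 ± 5.30 CPM when deficient and 11.3 ± 9.60 CPM when normal (SD), so the lower mean in deficient oocytes was seen on the later date only. In pools ETFDH had 12.01, 1.73, 4.5002, 10.1 and 27.9 CPM in the deficient ones, against 3.16, 12.2 and 18.2 CPM as the lowest, median and highest of the normal ones, and a log2 difference of 0.17 (SE 0.52, adjusted p = 0.974). ETFB was nearly uncounted, with 14 counts in deficient pool A3 and 0 in the other 10 pools, and 9 counts in 3 deficient oocytes and 2 counts in 2 normal oocytes. The state effect of ETFB in pools minus that in sums was 2.32 on the log2 scale (SE 1.53, adjusted p = 0.930).

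Of the peroxisomal enzymes, HSD17B4, the D-bifunctional protein that hydrates and dehydrogenates very long and branched chains, took the most counts. It stood at 122, 47.9, 96.2, 123 and 195 CPM in deficient pools A1, A2, A3, B2 and B4, against 68.8, 126 and 155 CPM as the lowest, median and highest of the normal pools. The lowest and the highest pool were both deficient, and the log2 difference was 0.04 (SE 0.24, adjusted p = 0.990). In the sums HSD17B4 had 11.8, 5.24, 18.7 and 23.4 CPM for deficient oocytes, against 13.6, 17.05 and 19.2 CPM for normal oocytes. The deficient sums again spanned the normal ones, with a log2 difference of -0.40 (SE 0.38, adjusted p = 1.00), and with each oocyte as a sample it was -0.36 on 17 September and -0.24 on 22 September.

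EHHADH, the L-bifunctional counterpart of HSD17B4, had 9.96, 0.483, 5.38, 7.89 and 8.45 CPM in the deficient pools, against 1.70, 5.04 and 8.96 CPM as the lowest, median and highest of the normal pools, a log2 difference of 0.39 (SE 0.53, adjusted p = 0.942). In the sums EHHADH stood at 0.697, 1.61, 0.170 and 0.858 CPM for deficient oocytes, against 0.212, 0.627 and 1.54 CPM for normal oocytes, with too few counts to pass the filter. ACAA1, the peroxisomal thiolase, had 2 counts in normal pool B2 and 0 in the other 10 pools, and 14 counts in 6 deficient oocytes and 14 counts in 4 normal oocytes.

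**Figure D3:**
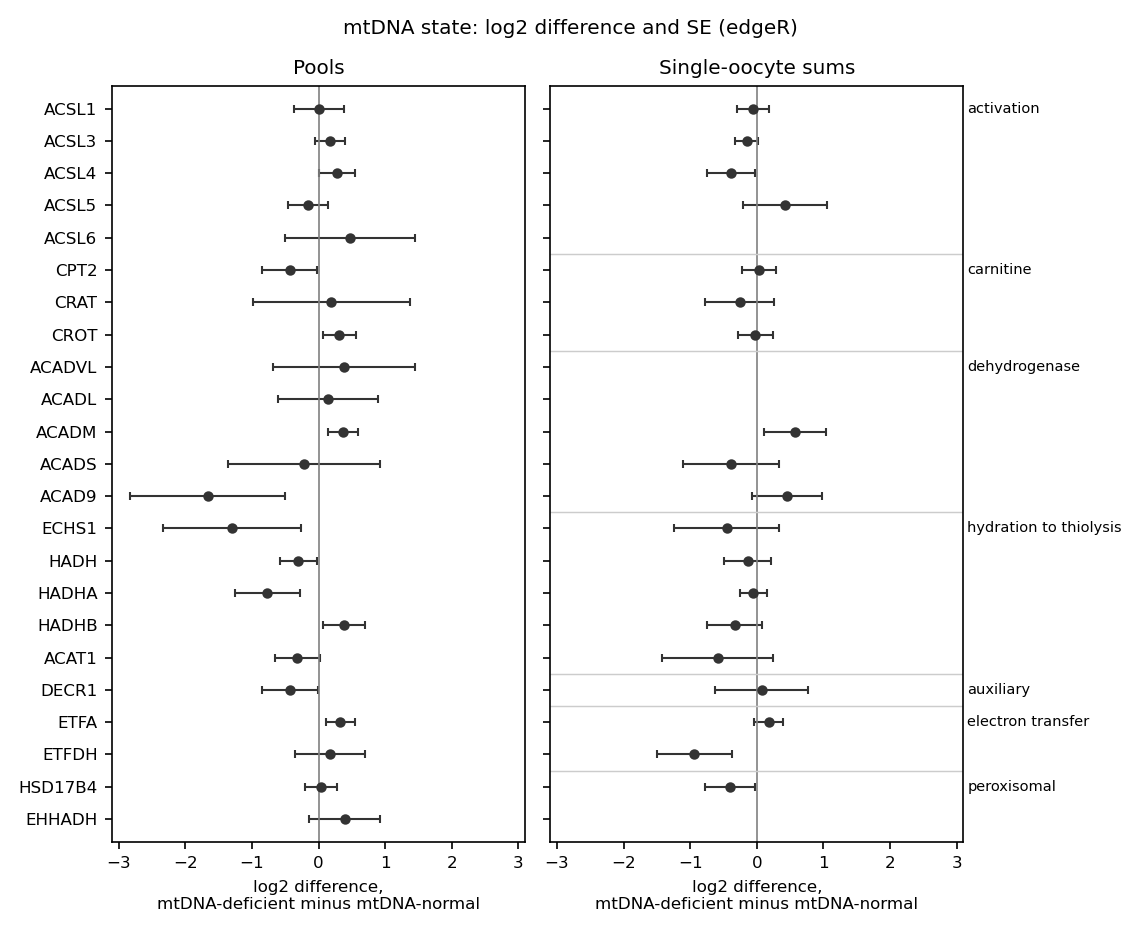
Log2 difference between mtDNA-deficient and mtDNA-normal oocytes with its standard error (horizontal bars) for the 23 members tested in pools (left) and the 19 tested in single-oocyte sums (right), from edgeR. No member was called; the values in pools run from -1.67 for ACAD9 to 0.47 for ACSL6 and those in sums from -0.94 for ETFDH to 0.58 for ACADM.

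Taken as a list, the members lay on both sides of 0. Of the 23 members tested in pools, 14 had a log2 difference above 0 (60.9%), against 49.8% of all genes tested, with a median of 0.14 against -0.00 over all genes. Without deficient pool B4 the median of the members was -0.18. Of the 19 members tested in sums, 6 had a log2 difference above 0 (31.6%), against 49.7% of all genes, with a median of -0.14 against -0.00 over all genes. The sign was the same in pools and sums for 7 of 19 members, against 47.8% of 10467 genes. The test of the state effect in pools minus that in sums called 0 of 29 members, 0 of them at an unadjusted p under 0.05, against 0 of 17643 genes (0%) called and 5.28% at an unadjusted p under 0.05. In that comparison 15 of 29 members lay above 0, against 47.6% of all genes. DESeq2 and limma-voom called 0 members in that comparison too.

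Some pools held the extreme values of many members, and also of many genes of the whole table. Deficient pool B4 held the highest value of 8 of the 23 tested members (34.8%), against 13.98% of all genes tested. Normal pool B2 held that of 5 members (21.7%), near the share of all genes, 21.4%. Deficient pool A2, which had the fewest genes detected, held the lowest value alone for 10 members (43.5%), against 26.9% of all genes. ACSL3 did not follow it, since only B4 stood above A2 among the deficient pools. With A2 and normal A3 both left out, the test called 0 members again and the median log2 difference was 0.14. Adding the number of genes detected to the fit also gave 0 calls.

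**Figure D4:**
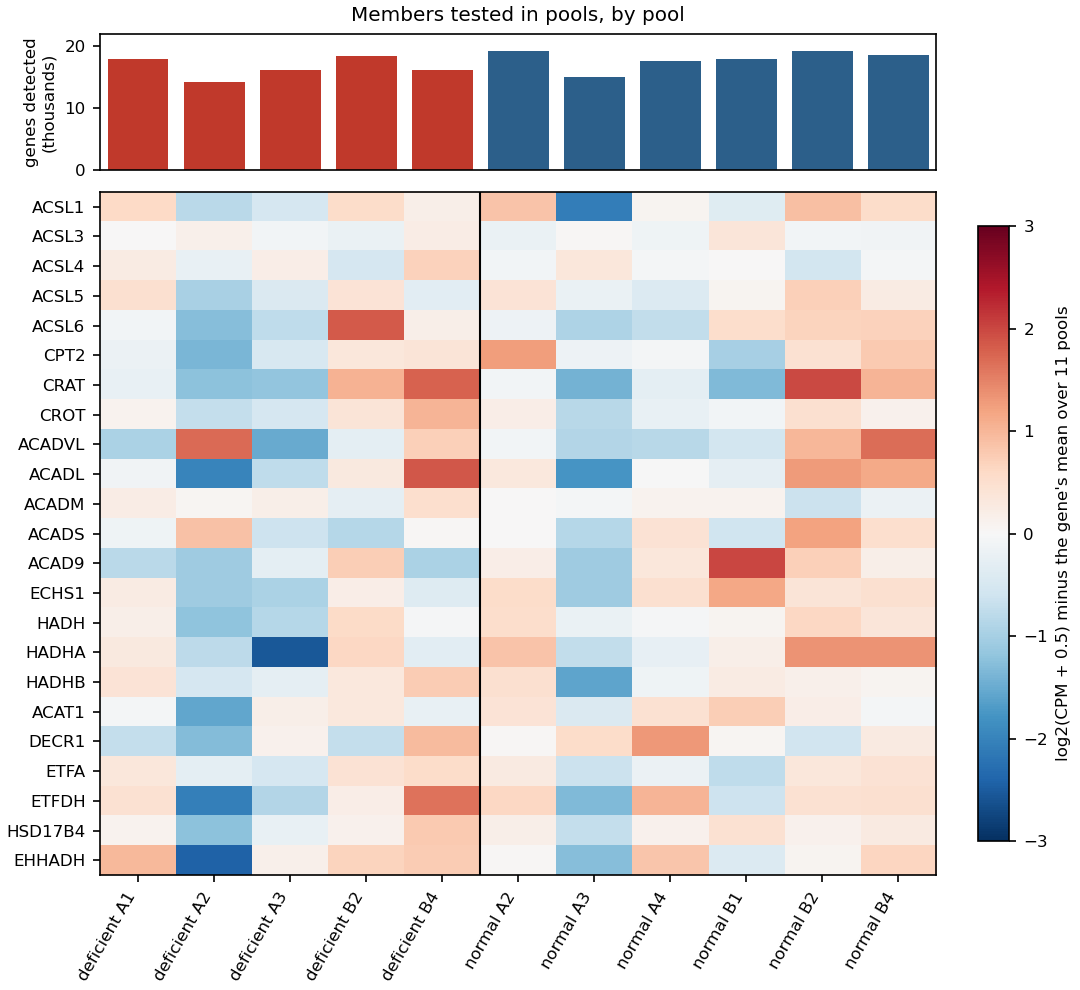
Level of the 23 tested members (rows) in 5 mtDNA-deficient pools (left) and 6 mtDNA-normal pools (right), as log2(CPM + 0.5) minus the gene's mean over 11 pools, under bars of the number of genes detected in each pool. Columns such as deficient A2 (14207 genes detected) and normal A3 (15057) are mostly blue, and deficient B4 holds the highest value of 8 members.

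Between pools and single-oocyte sums the members differed widely, as did most genes. Of 29 members tested jointly, 9 were higher in pools and 11 lower at an adjusted p under 0.05 (edgeR), against 32.5% of 17643 genes higher and 35.2% lower (67.7% in all). The share of called members, 69%, was near that of all genes. The same 20 members had an unadjusted p under 0.05, against 70.3% of all genes, and 14 of 29 members lay above 0, against 48.4% of all genes. The median log2 difference over all genes, pools minus sums, was -0.13 with TMM scaling and -0.60 with DESeq2's size factors. With those size factors 6 of 29 members were called higher and 12 lower, against 12039 of 17643 genes called in either direction. Pools and single oocytes differ in extraction, amplification kit and number of oocytes, and these cannot be told apart. With rows over 1% of any library left out, 9 of 29 members were called higher and 11 lower, against 12458 of 18830 genes called in either direction. CPM in sums is taken over counts that include LOC102158401, which took 53.8% to 71.3% of a sum and at most 0.0275% of a pool. An overlap or a gap in CPM between pools and sums therefore depends on that row.

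The members higher in pools were ACADM, HSD17B4, EHHADH, DECR1, ACSL3, ACSL4, ACAT1, ACSL5 and CROT. ACADM averaged 124 ± 24.2 CPM (SD) over 11 pools and 6.45 ± 2.32 CPM (SD) over 7 sums, a log2 difference of 3.91 (SE 0.23, adjusted p = 2.05e-13), and its lowest pool, at 78.4 CPM, lay above its highest sum, at 10.4 CPM. HSD17B4 averaged 120 ± 39.5 CPM in pools and 15.6 ± 5.93 CPM in sums, a log2 difference of 2.39 (SE 0.25, adjusted p = 7.10e-09). Its groups did not overlap in CPM either, with the lowest pool at 47.9 CPM and the highest sum at 23.4 CPM. EHHADH, the other bifunctional protein of peroxisomes, averaged 5.84 ± 3.07 CPM in pools and 0.816 ± 0.576 CPM in sums, with a log2 difference of 2.32 (SE 0.58, adjusted p = 0.00103). DECR1 averaged 22.5 ± 12.5 CPM in pools and 3.26 ± 2.03 CPM in sums, a log2 difference of 2.32 (SE 0.40, adjusted p = 1.51e-05). ACSL3 averaged 3161 ± 409 CPM in pools and 589 ± 111 CPM in sums, a log2 difference of 1.98 (SE 0.17, adjusted p = 1.20e-10), and its lowest pool, at 2746 CPM, lay above its highest sum, at 728 CPM. The log2 differences of the other members called higher were 1.97 for ACSL4, 1.41 for ACAT1, 1.17 for ACSL5 and 0.70 for CROT, of which ACAT1, ACSL5 and CROT were not called with DESeq2's size factors (adjusted p = 0.0518, 0.0679 and 0.356).

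The members lower in pools were ACAA1, ECI1, ACAD9, ECI2, ACADS, HADHA, ECHS1, ETFB, CPT2, CRAT and ACSL1. HADHA, the subunit with the hydratase of the trifunctional protein, averaged 13.2 ± 8.56 CPM in pools and 64.2 ± 15.8 CPM in sums, a log2 difference of -2.92 (SE 0.31, adjusted p = 6.05e-09), with its highest pool at 27.3 CPM and its lowest sum at 41.5 CPM. Its partner HADHB did not pass, at 13.7 ± 4.91 CPM in pools and 8.77 ± 2.75 CPM in sums, a log2 difference of 0.12 (SE 0.29, adjusted p = 0.730). CPT2 averaged 7.57 ± 4.09 CPM in pools and 29.4 ± 7.99 CPM in sums, a log2 difference of -2.49 (SE 0.28, adjusted p = 1.61e-08). ACAD9 averaged 0.801 ± 1.06 CPM in pools and 6.43 ± 3.46 CPM in sums, a log2 difference of -3.73 (SE 0.69, adjusted p = 3.95e-05), and ACADS 0.516 ± 0.517 CPM in pools and 2.87 ± 1.48 CPM in sums, a log2 difference of -3.01 (SE 0.76, adjusted p = 0.00118). For the dehydrogenases the direction thus depended on the gene, with ACADM higher and ACADS and ACAD9 lower in pools. ECHS1 had a log2 difference of -2.90, CRAT of -2.41 and ACSL1 of -1.24.

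The remaining members called lower in pools rested on few counts. ECI1 had 17 counts over the pools and 44 counts over the oocytes, so that its CPM over all counts was 16.2 times higher in oocytes than in pools, with a 95% counting interval of 9.08 to 30.3. Of these oocyte counts 28 were in deficient sum 4, and without that sum the ratio was 7.36 (3.48 to 15.5). ACAA1 had 2 counts over the pools and 28 counts over the oocytes, a ratio of 87.7 with an interval of 22.1 to 760. For ECI2 the ratio was 2.61 (1.33 to 4.89), or 1.79 (0.718 to 3.91) without normal sum 4, and for ETFB 4.92 (2.02 to 11.7). All of these intervals cover counting error only. The fitted log2 difference of ECI1 was -3.86 (SE 1.14, adjusted p = 0.00443, edgeR). It was -3.36 for ECI2 (SE 1.08, adjusted p = 0.00909), -2.85 for ETFB (SE 1.15, adjusted p = 0.0338) and -6.56 for ACAA1 (SE 1.14, adjusted p = 3.19e-05). ECI2, ETFB and ACAA1 each had a pooled state group at 0, so their fitted log2 differences depend on the handling of zeros. ECI2 was not called without deficient sum 4 (adjusted p = 0.0547), and ETFB was not called without normal sum 4 (adjusted p = 1.00). For CPT1A, with 0 counts over the pools, the CPM over all oocyte counts was 25.1-fold that of a limit of 3 counts over the pools. This value leaves out the counting error of its 12 oocyte counts and is not a lower bound. All 12 came from 1 oocyte.

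**Figure D5:**
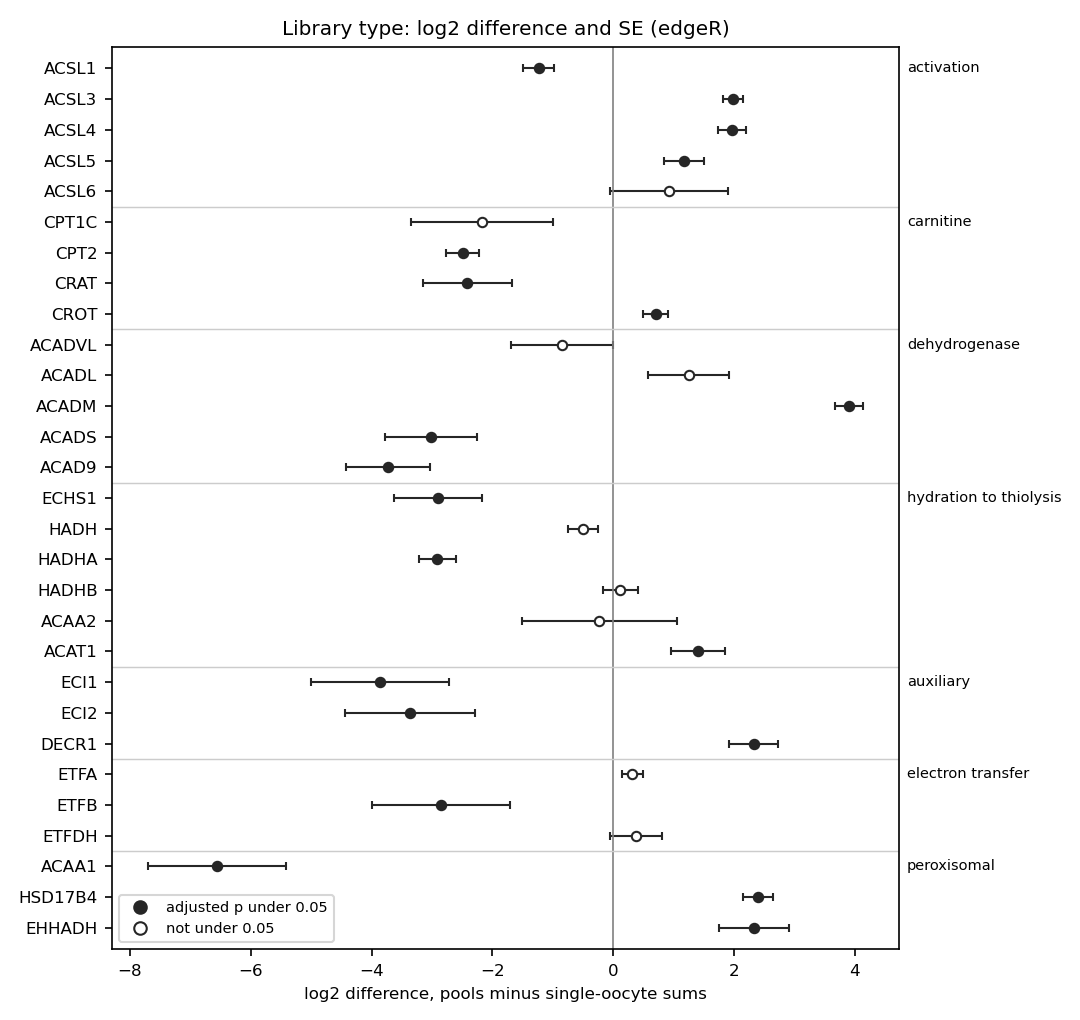
Log2 difference between pools and single-oocyte sums with its standard error for the 29 members tested jointly, from edgeR; filled points have an adjusted p under 0.05 and open points do not. Of the filled points 9 lie right of 0, led by ACADM at 3.91, and 11 lie left of it, led by ACAA1 at -6.56.

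The members that did not pass between pools and sums were HADH, HADHB, ETFA, ETFDH, ACSL6, CPT1C, ACADVL, ACADL and ACAA2. ETFA averaged 131 ± 40.9 CPM in pools and 77.4 ± 28.9 CPM in sums, a log2 difference of 0.32 (SE 0.18, adjusted p = 0.116) with an interval of -0.05 to 0.68. HADH averaged 20.3 ± 7.03 CPM in pools and 20.04 ± 7.77 CPM in sums, a log2 difference of -0.50 (SE 0.25, adjusted p = 0.0789). The mean CPM of HADH was nearly equal, with a log2 ratio of 0.02, while the fitted log2 differences include TMM scaling, which lowers pools against sums by 0.48 on the log2 scale for every gene. HADH was called lower in pools with DESeq2's size factors (adjusted p = 0.000806), and without deficient pool B2 (0.0371) or deficient sum 2 (0.0207). ACADL was called higher in pools without deficient pool A2 (adjusted p = 0.0491), and CPT1C lower in pools without deficient pool B2 (0.0124) or normal pool B2 (0.0496).

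Other genes around the pathway, listed by function and chosen with earlier results of these data known, showed no call between states either. None of their tested genes was called in pools or in sums by edgeR. The gene of smallest p in each list in pools was CD36 among uptake and release genes, SIRT3 among regulators, ACSS2 among other synthetases and thioesterases, SLC25A17 among peroxisomal genes, HSD17B10 among other mitochondrial enzymes and ACACB among genes of carnitine supply and malonyl-CoA. CD36, a fatty acid transporter of the cell surface, averaged 352 ± 90.5 CPM in deficient pools and 234 ± 40.2 CPM in normal pools (SD), a log2 difference of 0.68 (SE 0.24, adjusted p = 0.887), and SIRT3, a mitochondrial deacetylase, averaged 1.14 ± 0.689 CPM in deficient pools and 3.58 ± 1.36 CPM in normal pools, a log2 difference of -1.57 (SE 0.56, adjusted p = 0.903). These were the only listed genes with an unadjusted p under 0.05 in pools. In the sums CD36 averaged 37.2 ± 8.49 CPM for deficient and 33.3 ± 7.97 CPM for normal oocytes, and SIRT3 23.6 ± 6.68 CPM for deficient and 20.7 ± 6.997 CPM for normal oocytes. ACSS2 had a log2 difference of -0.81 in pools, SLC25A17 of -0.47, HSD17B10 of -1.92 and ACACB of -1.33, each at an adjusted p of 0.926.

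In the sums the genes of smallest p in their lists included ACACA, which makes malonyl-CoA, with a log2 difference of 0.32, SLC25A17, a peroxisomal carrier, with 0.54, ESRRA, a nuclear receptor, with -0.96, ACSS3 with -0.75 and ABHD5, an activator of lipid droplet lipolysis, with -0.40, all at an adjusted p of 1.00. SLC25A17 had the opposite sign in pools, and its state effect in pools minus that in sums was -0.97 on the log2 scale (SE 0.41, adjusted p = 0.912).

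Between pools and sums, each of these lists held members called in either or both directions. Of 7 tested genes of carnitine supply and malonyl-CoA, 1 was higher in pools and 0 lower, namely ALDH9A1, an enzyme of carnitine synthesis, with a log2 difference of 0.78. Of 11 peroxisomal genes, 1 was higher and 5 lower, with ABCD3, a transporter of branched and long-chain acyl-CoA into peroxisomes, at 2.86 and the related transporter ABCD2 at -4.01. SLC25A17 was lower in pools at -1.15. Of 11 other synthetases and thioesterases 0 were higher and 7 lower, among them SLC27A3 at -4.59, ACSS3 at -2.12 and ACSF3 and SLC27A4, which had pooled groups at 0. Of 10 other mitochondrial enzymes 3 were higher and 5 lower, with SLC25A32, the carrier that supplies mitochondrial flavin and folate, at 2.50, HSD17B10 at -4.77, FLAD1, which makes the flavin cofactor, at -4.19 and ACAD8 at -2.70. Of 7 uptake and release genes 1 was higher and 2 lower, with CD36 at 2.57, PNPLA2, the main lipase of lipid droplets, at -2.88 and FABP3 at -2.64. Of 8 regulators 2 were higher and 5 lower, with PRKAA1, a catalytic subunit of AMP-activated kinase, at 1.48, its upstream kinase STK11 at -4.48, SIRT3 at -3.93 and ESRRA at -7.91. These counts were read against 32.5% of all genes higher and 35.2% lower.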

How the data were processed

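RNA sequencing of pig oocytes gave 1 table of counts for 11 pools and 1 for 29 single oocytes. CPM was computed here as counts per 1000000 counts in rows that name a gene. The deposited values are raw counts of reads per gene, which the authors made from 100 bp paired-end reads, with FastQC, Trim Galore, TopHat2 2.0.14, edgeR and the Sscrofa10.2 build named in the submitters' processing notes; the sources used here do not name the counting program, its strand setting or the annotation. Reads of overlapping or antisense genes, and of near-identical copies, may therefore be shared between rows. A row without a gene name, left out here, took between 1.05% and 4.75% of counts in pools and between 0.648% and 8.15% in oocytes. No sequence, gene length or coordinate is given, since no genome of this build was at hand.

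Counts were tested with edgeR 4.0.16 in R 4.3.3, with its expression filter at a minimum count of 10, TMM scaling, the robust quasi-likelihood test and Benjamini-Hochberg adjustment over all genes tested, at 0.05. The difference between states was fitted in the pools, in the single-oocyte sums, and jointly for the library type and the interaction. Intervals are 95%. The alternatives were DESeq2 1.42.0, limma-voom (limma 3.58.1), other size factors, no filter, blocks, dates and leaving out each library. Same-numbered sums of the 2 states had correlations of 0.143, 0.220 and 0.165 for numbers 2, 3 and 4, each the highest found for its number. The values given for sums come from a fit without a block. The title number as a block, over the 6 sums of shared number, was an alternative that changed no member's call. Tested on simulated data, the pooled comparison (12999 genes) recovered 10.4% of changes of 1 and 47.9% of changes of 2 on the log2 scale, and the comparison of sums (11130 genes) 20% and 67.8%, while the interaction (17146 genes) recovered 0% and 18.4%. The fits within a date took each oocyte as a sample.

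The members and lists were chosen with earlier results of these data known. Every member is named; those past the threshold, or else the 4 of smallest p in each comparison, and the member of highest mean CPM in each role are given in full, for library type the 5 of largest change in each direction. Of the other lists, up to 4 called genes are named, or else the gene with the smallest p; some genes this rule selects are not reported here.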

Additional observations from a re-analysis of the deposited data

Results flagged for a closer look

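In 5 of 65 sets of 1 member in 1 group, 1 library stood far from the others, by Dixon's criterion at 95%. Chance meets that criterion in about 1 of 20 sets of independent, normally distributed values. These sets share libraries and include scarce genes, so that rate may not hold here, and the number was not tested against chance. ACSL6 had 3.87 CPM in deficient pool B2, where the other deficient pools had 0 to 0.880 CPM. ACAD9 had 1.25 CPM in deficient pool B2, against 0 to 0.353 CPM in the other deficient pools, and 3.69 CPM in normal pool B1, against 0 to 1.20 CPM in the other normal pools. HSD17B4 had 68.8 CPM in normal pool A3, the normal pool with the fewest genes detected, against 123 to 155 CPM in the other normal pools. HADH had 6.85 CPM in deficient sum 2, against 23.8 to 25.4 CPM in the other deficient sums.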

How the results depend on the processing

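Between states, and for the interaction, 0 members were called under every alternative run, with lowest adjusted p-values of 0.490 in pools (HADHA), 0.814 in sums and 0.666 for the interaction. Without a call, the sign changed under at least 1 alternative for 10 of 23 members in pools, 6 of 19 in sums and 12 of 29 for the interaction. The median log2 difference of the members in pools, 0.14, was -0.17 with the pool name as a replicate block, -0.18 without deficient B4, -0.06 without normal A3 and -0.04 with limma-voom; the cause was not tested. With that replicate block over the 8 pools that share a name, 949 genes had an unadjusted p under 0.05, against 513 without it, and 0 members were called. Pools of the same name had correlations of -0.105, 0.127, 0.476 and 0.0781 for A2, A3, B2 and B4. For A3, B2 and B4 this was the highest correlation found, while A2 correlated best with A3, at 0.289. The labels do not say whether pools of the same name are paired. With the title number as a replicate block in the sums, 0 members were called, and 1 gene of the whole table, against 0 genes in the same 6 sums without it. Neither block changed the call of a member.

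For library type, 16 to 22 members were called over all alternatives and 18 to 22 when 1 library was left out, and no called direction turned. The number tested and the calls over all genes changed too. With each oocyte as a sample 16 of 19 members were called, against 8564 of 10628 genes. With the normal libraries only it was 16 of 24, against 8759 of 15992 genes. It was 18 of 28 without deficient sum 4, against 11435 of 17638 genes, and 22 of 29 without deficient pool B2, against 11868 of 17278 genes. With DESeq2, CROT (adjusted p = 0.373) and ETFB (0.259) were not called and HADH was, and with limma-voom CPT1C was called too. With the normal libraries alone ECI2 was not called (adjusted p = 0.351). The median over all genes was -1.61 with DESeq2, over 26844 genes without the expression filter, against -0.13 with TMM over 17643 filtered genes. Without the filter, the median with TMM was -0.23 over 27164 genes. Leaving out deficient pool A2 and normal pool A3 together, and leaving out genes that took over 1% of any oocyte's counts, were chosen after seeing the data; each called 0 members between states. Leaving out the sum with the most counts of a scarce member was added then too. Depth limits the scarce members: 7 had fewer than 50 counts over all pools.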
